A study of Homo sapiens with 6 samples.

Results

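TPP2 and the peptidases that trim or destroy peptides on their way to MHC class I were examined in CAL-27 cells, an established human line of tongue squamous carcinoma, after knockdown of XBP-1s. The group held 10 genes taken by function: TPP2, NPEPPS, LAP3, THOP1, NRDC and BLMH of the cytosol, LNPEP and TPP1 of endosomes and lysosomes, and ERAP1 and ERAP2 of the endoplasmic reticulum (ER). Every non-control probe whose RefSeq accession maps to 1 of these symbols was taken, which gave 13 of the 34127 probes on the array, each printed as a single spot. ERAP1, NPEPPS and TPP1 had 2 probes each and the other 7 genes had 1. Cells stably transduced for knockdown of XBP-1s by shRNA (group shXBP-1s, n = 3) were set against the negative control (group shCtrl, n = 3, whose vector is not described in the sources used here), and 1 array with a single Cy3 dye was hybridised per sample. The sources used here do not give the number of shRNA sequences or clones, and the labels do not say whether the 3 samples of a group came from separate cultures. The methods speak of independent experiments in general and not of the arrays, so the p-values are taken to measure only the spread between these samples, which may be technical.

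MHC class I molecules present short peptides that begin as longer products of the proteasome. Cytosolic peptidases shorten these products or degrade them to amino acids before the TAP transporter moves the survivors into the ER, where ERAP1 and ERAP2 trim the amino end to the length that class I molecules hold. LNPEP (IRAP) does the same kind of trimming in endosomes during cross-presentation. TPP2, a very large cytosolic serine peptidase, removes tripeptides from the amino end of peptides too long for most other aminopeptidases. XBP-1s is the transcription factor made from spliced XBP1 mRNA when IRE1α senses unfolded proteins in the ER, and the arrays addressed how signalling of this kind bears on MHC class I at the cell surface.

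Because XBP-1s acts on promoters, promoter sequences of TPP2, LNPEP and ERAP1 are shown first. TPP2 and LNPEP rose most. ERAP1 had the probe with the largest fall, while LAP3, BLMH and THOP1 fell by more than its other probe. The sequences come from RefSeq (GRCh38.p14) and run from 250 bases before to 50 after the annotated start on the coding strand. Capitals mark any match to 4 motifs linked to XBP1 binding. The motifs were the palindrome CACGTG, which is also an E-box, the related string GCCACGT, which may overlap the palindrome by part of its length, the longer string TGACGTGG, and the ER stress element by its name, a CCAAT box followed after a gap of 9 bases by its partner element. Each was searched on both strands.
TPP2, chr13:102596736-102597035, plus strand: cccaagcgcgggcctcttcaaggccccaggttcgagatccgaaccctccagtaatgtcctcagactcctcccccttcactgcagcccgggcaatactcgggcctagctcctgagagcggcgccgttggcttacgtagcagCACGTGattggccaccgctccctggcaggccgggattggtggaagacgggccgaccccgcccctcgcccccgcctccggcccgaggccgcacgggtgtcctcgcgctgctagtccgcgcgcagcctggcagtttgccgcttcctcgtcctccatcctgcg
LNPEP, chr5:96935830-96936129, plus strand: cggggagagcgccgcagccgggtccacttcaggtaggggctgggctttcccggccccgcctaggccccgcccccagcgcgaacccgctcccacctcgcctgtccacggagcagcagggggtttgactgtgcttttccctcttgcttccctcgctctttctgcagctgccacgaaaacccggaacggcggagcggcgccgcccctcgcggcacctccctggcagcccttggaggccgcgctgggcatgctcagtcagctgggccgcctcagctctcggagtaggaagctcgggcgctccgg
ERAP1, chr5:96807896-96808195, minus strand: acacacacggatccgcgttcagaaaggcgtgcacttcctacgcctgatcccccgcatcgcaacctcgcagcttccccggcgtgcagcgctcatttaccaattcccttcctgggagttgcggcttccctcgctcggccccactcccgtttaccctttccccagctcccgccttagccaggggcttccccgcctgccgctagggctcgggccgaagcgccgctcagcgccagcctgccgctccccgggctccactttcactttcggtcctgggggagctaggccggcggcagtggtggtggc
The TPP2 promoter held 1 CACGTG, whose first base lies at -110 from the start site, and no match to the other 3 motifs. Of 35116 promoters of the same length in the RefSeq table, 7.26% held the palindrome CACGTG, 3.22% the related string GCCACGT, 0.729% the longer string TGACGTGG and 0.0769% the ER stress element. The 10 genes had 14 annotated promoters, and TPP2 had the only match among them to any of the 4 motifs. The LNPEP and ERAP1 windows printed here had no match, and the same holds for the further promoter that each of those genes has. A match is a string of letters, and these arrays measure RNA and not binding. Assays of binding by the study are not reported here. The printed TPP2 promoter was rich in CpG, with an observed over expected ratio of 0.865, as were those of LNPEP (0.767) and ERAP1 (0.85), against a median of 0.579 over all promoters. LAP3 (1.16), THOP1 (0.909), BLMH (0.945) and NRDC (0.875) also had promoters above that median. The promoters of TPP1 (0.273) and ERAP2 (0.0645 and 0.248) were poor in CpG. So were the further promoters of LNPEP (0.28) and ERAP1 (0.189), and NPEPPS had 1 of each kind (0.12 and 0.974).

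Between 82.1% and 84.8% of the non-control spots of an array were well above background and no spot was saturated. Only 3 arrays per group were at hand, and what limits the precision was not tested. Each log2 signal below has the array's own 75th percentile subtracted, and it can be compared between arrays for 1 probe but not between probes. XBP1, the targeted gene, had values of 1.85 to 1.88 on shCtrl arrays and of -0.54 to -0.50 after knockdown, a log2 fold change of -2.39 ± 0.04 (SE, n = 3 per group). All 8 squamous epithelial markers examined, CDH1, EPCAM and TP63 among them, had a probe well above background on all 6 arrays. The same held for all 8 markers of leukocytes, endothelium and fibroblasts, so being above background does not by itself show a cell type on these arrays. The summed signal of the latter 8, in units of the 75th percentile, was 4.77 to 6.59 in shCtrl and 3.41 to 3.63 in shXBP-1s, most of it from CD14 alone (3.91 to 5.72 and 2.52 to 2.82). Without CD14 the sum of the remaining 7 was 0.798 to 0.868 in shCtrl and 0.805 to 0.889 in shXBP-1s, and these ranges overlap. The summed signal of the epithelial markers was 101.7 to 108.3 and 138.7 to 163.4. Of those 8, 6 rose with knockdown (adjusted p below 0.05 in limma) and none fell, among them the keratin genes KRT6A (4.28), KRT14 (1.58), KRT17 (1.53) and KRT5 (1.43), each past 2-fold, while CDH1 (0.13) and EPCAM (0.01) did not pass. Among the markers of other cell types DCN was higher and CD14 and COL1A1 were lower by the same test. The part of these markers in the results below was not tested. In RNA from a whole culture, fewer cells of a type and less RNA per cell cannot be told apart. The shCtrl replicates 2 and 3 were scanned in a scan of their own and shCtrl replicate 1 with all 3 shXBP-1s arrays in another, so 1 control array was scanned alongside the knockdown.

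All 13 peptidase probes were well above background on all 6 arrays and were tested with limma, with Benjamini-Hochberg adjustment over the 27624 probes tested. Of these, 2 passed an adjusted p of 0.05 upwards in shXBP-1s (LNPEP and TPP2) and 6 were lower (both ERAP1 probes, LAP3, BLMH, THOP1 and the brighter NPEPPS probe). Over all tested probes 18.4% were higher and 23.3% lower by the same rule, 41.7% in either direction, so a large part of the transcriptome passed it. The 8 of 13 can be read only against that share. With a minimum of 2-fold in addition, LNPEP was higher and the dimmer ERAP1 probe lower, where 2.29% and 2.61% of all probes were, 4.90% together. The median log2 fold change of the 13 probes was -0.21, against -0.02 over all tested probes, and their median absolute change was 0.35 against 0.23. The groups did not overlap for 11 of the 13 probes, 4 of them higher and 7 lower in shXBP-1s, as for 52.4% of all tested probes (23.9% higher and 28.5% lower). The smallest 2-sided p of an exact permutation test on a single probe was 0.1 with this number of arrays.

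**Figure D1:**
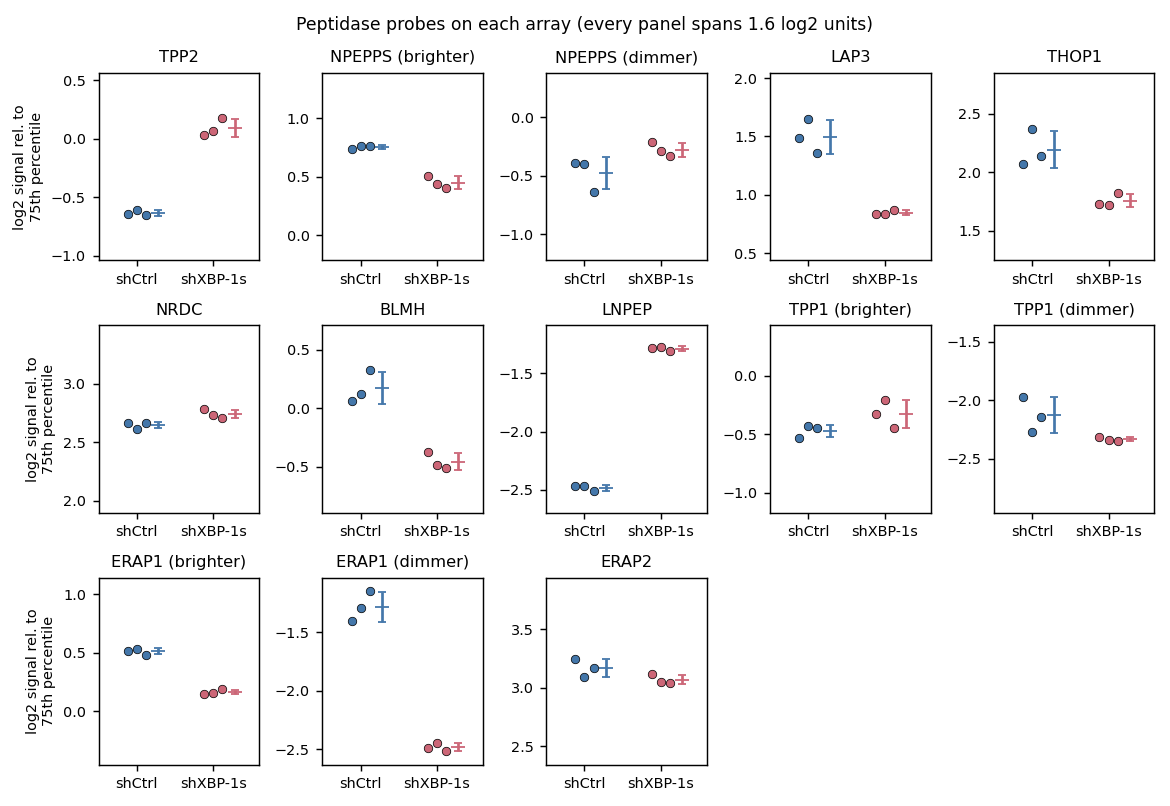
Log2 signal relative to the 75th percentile of the array (y axis, each panel spanning the same log2 range) for the 13 peptidase probes on the 3 shCtrl arrays (blue) and the 3 shXBP-1s arrays (red), with the mean and SD beside the points. LNPEP and TPP2 lie higher in shXBP-1s with no overlap, both ERAP1 probes, LAP3, BLMH, THOP1 and the brighter NPEPPS probe lie lower with no overlap, and TPP1 (brighter) and ERAP2 overlap.

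LNPEP and TPP2 rose. LNPEP, the insulin-regulated aminopeptidase of endosomes, had a log2 signal of -2.46, -2.47 and -2.51 on the control arrays and of -1.28, -1.28 and -1.32 on the shXBP-1s arrays. The spread within each group (SD 0.02 in both) was a small fraction of the gap of 1.15 between the nearest arrays of the groups. The log2 fold change was 1.19 (95% interval 1.07 to 1.31), or 2.28-fold, with an adjusted p of 2.84e-06 in limma, and 3.14% of all tested probes changed by more in either direction. It was the only gene of the 10 to rise past 2-fold. With normexp background correction the median of all tested probes moved to -0.41. The LNPEP value fell to 0.59 (adjusted p = 0.0361 in limma), which is 1.00 above that median. Under normexp, XBP1 had an adjusted p of 1.08e-125 in limma with 3 arrays per group. The normexp p-values here and below therefore rest largely on variance shared over probes, not on each probe's own spread.

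TPP2 had 1 probe, with values of -0.64, -0.61 and -0.65 in shCtrl and 0.03, 0.07 and 0.18 in shXBP-1s. Each knockdown array lay above each control array, by at least 0.64. The rise was 1.65-fold (log2 fold change 0.73, 95% interval 0.60 to 0.85, adjusted p = 2.48e-05 in limma). Against shCtrl replicate 1, the control of the same scan, the difference was 0.73. The tested probes nearest to TPP2 over the 6 arrays belonged to ANP32E (0.0240), ABCE1 (0.0398), AIM2 (0.0570), EFNB1 (0.0606) and LIPH (0.0672). The values are Euclidean distances after each probe was set to its shCtrl mean, so they depend largely on the size of the change. The 5 were picked as the nearest, so their small distances are not a result. Their log2 fold changes ran from 0.71 in LIPH to 0.74 in EFNB1. ANP32E is a histone chaperone, ABCE1 recycles ribosomes and AIM2 senses cytosolic DNA.

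ERAP1, the ER aminopeptidase that trims the amino end of class I peptides, fell by both of its probes, and by different amounts. The brighter probe (NM_001040458) gave 0.52, 0.54 and 0.49 in shCtrl and 0.15, 0.16 and 0.19 in shXBP-1s. The dimmer probe (NM_016442) gave -1.41, -1.30 and -1.15 in shCtrl and -2.49, -2.45 and -2.52 in shXBP-1s. Both were lower on every knockdown array, the first 1.27-fold (log2 fold change -0.35, 95% interval -0.45 to -0.25, adjusted p = 3.52e-04 in limma) and the second 2.30-fold (-1.20, -1.37 to -1.03, adjusted p = 1.12e-05). With normexp the brighter probe was at -0.30, which is 0.12 above the median of all tested probes under that setting. The dimmer was at -1.10, which is 0.69 below it. Quantile normalization after normexp put the brighter at -0.29 (adjusted p = 0.00109 in limma) and the dimmer at -0.79 (9.13e-05). The difference between the probes within an array was 1.80 ± 0.15 (SD, n = 3) on the control arrays and 2.65 ± 0.05 (SD, n = 3) on those of the knockdown. That widening of 0.85 (SE 0.10) had an adjusted p of 9.46e-04 in a limma fit to all 4875 pairs of a gene's brightest and another tested probe, in which 33.1% of pairs passed. The probes carry the accessions of different ERAP1 transcripts, and which transcripts each detects was not tested.

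ERAP2, the partner of ERAP1 that prefers other residues at the amino end, gave 3.24, 3.09 and 3.17 in shCtrl and 3.12, 3.05 and 3.04 in shXBP-1s, and the groups overlapped. Its log2 fold change of -0.10 (95% interval -0.22 to 0.02, adjusted p = 0.172 in limma) did not pass. ERAP1, ERAP2 and LNPEP are neighbours on chromosome 5, the first transcribed from the minus strand and the others from the plus strand, and belong to the same subfamily of zinc aminopeptidases. In this cluster 1 gene fell, 1 rose and 1 did not pass the test. The gene span that RefSeq lists for ERAP1 contains that of ERAP2, although the ERAP1 promoters in the table used here lie outside the ERAP2 span, and the labels describe double-stranded cDNA in the dye step, so signal from overlapping transcripts of opposite strand cannot be told apart.

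**Figure D2:**
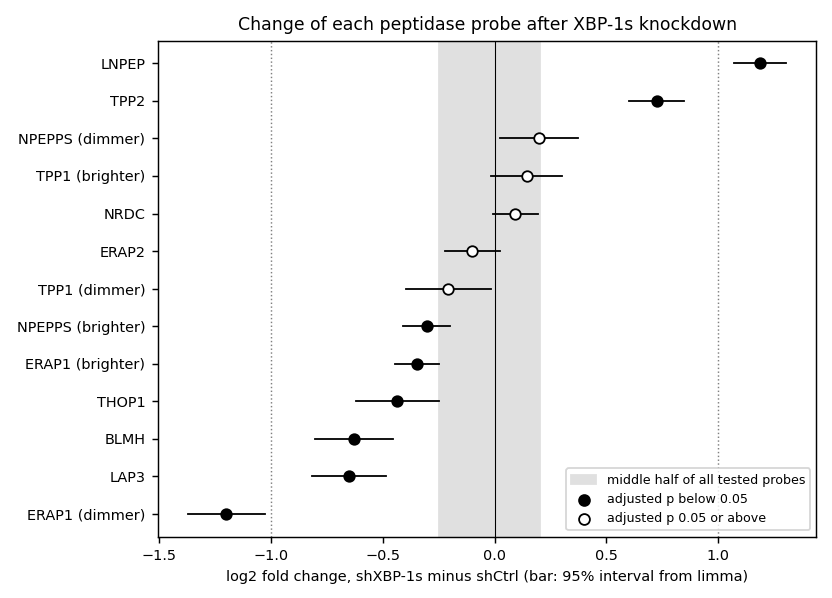
Log2 fold change of each of the 13 peptidase probes, shXBP-1s minus shCtrl (x axis), with its 95% interval from limma. Filled points passed an adjusted p of 0.05, the grey band holds the middle of the distribution of all tested probes (lower to upper quartile, -0.25 to 0.20) and the dotted lines mark 2-fold. LNPEP (1.19) and the dimmer ERAP1 probe (-1.20) lie outside the dotted lines.

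Of the cytosolic peptidases other than TPP2, LAP3, BLMH and THOP1 fell and NRDC did not pass the test. LAP3, the leucine aminopeptidase, an interferon-γ-inducible enzyme that removes single amino-terminal residues, gave 1.49, 1.65 and 1.36 in shCtrl and 0.83, 0.84 and 0.87 in shXBP-1s. It was 1.57-fold lower (log2 fold change -0.65, 95% interval -0.82 to -0.48, adjusted p = 2.08e-04 in limma). BLMH, bleomycin hydrolase, a cysteine aminopeptidase, gave 0.06, 0.12 and 0.32 in shCtrl and -0.38, -0.49 and -0.51 in shXBP-1s, 1.54-fold lower (-0.63, -0.80 to -0.45, adjusted p = 3.29e-04). Every knockdown array was below every control array for both genes. With normexp both LAP3 and BLMH moved to -0.41, the median of all tested probes under that setting, and so stood 0.003 above it, although both passed the test against 0 (adjusted p = 1.86e-05 and 0.00366 in limma). When quantile normalization followed normexp, LAP3 was at -0.44 (adjusted p = 0.0107 in limma) and BLMH at -0.37 (0.0160).

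THOP1, thimet oligopeptidase, which cuts peptides of class I length internally and so destroys them, gave 2.07, 2.37 and 2.14 in shCtrl and 1.73, 1.72 and 1.82 in shXBP-1s. The groups did not overlap, and it was 1.35-fold lower (log2 fold change -0.44, 95% interval -0.62 to -0.25, adjusted p = 0.00306 in limma). Of the shCtrl arrays the one scanned with the knockdown arrays was the lowest, and against it alone the difference was -0.31. With normexp THOP1 was at -0.30 (adjusted p = 0.00272 in limma), still lower than 0 but 0.12 above the median of all tested probes. With quantile normalization after normexp it was at -0.35 (adjusted p = 0.00201 in limma).

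NRDC, nardilysin, a metallopeptidase that cuts before basic residues, lay between 2.62 and 2.67 in shCtrl and between 2.71 and 2.78 in shXBP-1s. Its arrays did not overlap, but the log2 fold change of 0.09 (95% interval -0.01 to 0.19) did not pass in limma (adjusted p = 0.125). It passed with quantile normalization (0.15) and with normexp (0.28).

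NPEPPS, the puromycin-sensitive aminopeptidase of the cytosol, gave a different answer by each probe. The brighter probe was 0.74, 0.76 and 0.76 in shCtrl and 0.51, 0.44 and 0.41 in shXBP-1s, which gave a log2 fold change of -0.30 (95% interval -0.41 to -0.20, adjusted p = 0.00107 in limma). The dimmer probe was -0.39, -0.40 and -0.63 in shCtrl and -0.21, -0.29 and -0.33 in shXBP-1s, and its log2 fold change of 0.20 (0.03 to 0.37) did not pass (adjusted p = 0.0663). The first was lower and the second higher on every knockdown array. With normexp the brighter probe was at -0.25, above the median of all tested probes by 0.16, and the dimmer at 0.14. Quantile normalization after normexp put the brighter at -0.25 (adjusted p = 0.00593 in limma) and the dimmer at 0.18 (0.0793). The difference between the probes was 1.23 ± 0.15 (SD, n = 3) on the control arrays and 0.73 ± 0.01 (SD, n = 3) on those of the knockdown, a change of -0.50 (SE 0.09, adjusted p = 0.00571 in the limma fit to all probe pairs). Both probes carry the same accession (NM_006310), and RefSeq also lists NPEPPSP1, a transcribed pseudogene of NPEPPS on the same chromosome. Whether either probe reads it was not tested, so the direction for NPEPPS is uncertain.

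TPP1, the lysosomal tripeptidyl peptidase, which shares the reaction of TPP2 but works in acid, did not pass the test by either probe. The brighter probe ranged from -0.53 to -0.43 in shCtrl and from -0.45 to -0.21 in shXBP-1s, the log2 fold change being 0.14 (95% interval -0.02 to 0.30, adjusted p = 0.133 in limma). The dimmer one ranged from -2.27 to -1.97 and from -2.35 to -2.32, with a log2 fold change of -0.21 (-0.40 to -0.02, adjusted p = 0.0792). The change in the difference between these probes (0.35, SE 0.12) had an adjusted p of 0.0706 in the fit to probe pairs. For the dimmer probe the difference against shCtrl replicate 1 alone was -0.37, and with the scan as a block, where the contrast rests on that control, it passed (adjusted p = 0.0139 in limma). It also passed without shCtrl replicate 2 (-0.28, adjusted p = 0.0253 in limma) and with quantile normalization after normexp (-0.14, 0.0304), and the brighter probe passed without shXBP-1s replicate 3 (0.20, 0.0369). For all 13 probes the difference against that control alone had the same sign as the log2 fold change.

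**Figure D3:**
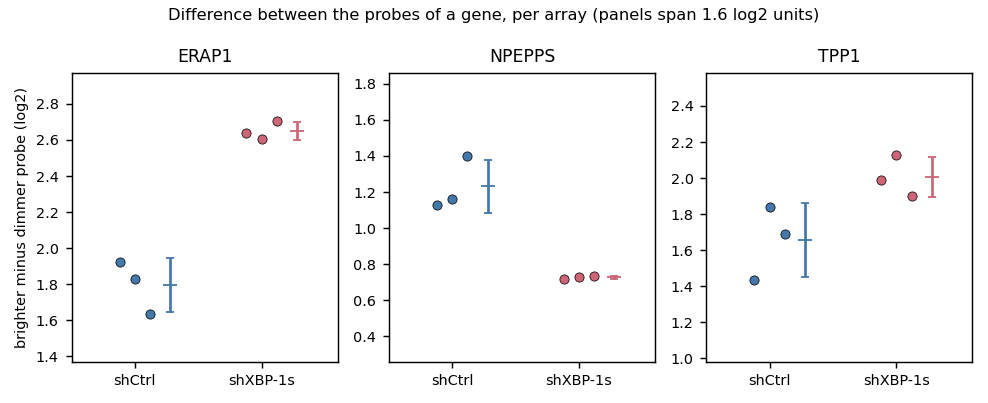
Difference between the brighter and the dimmer probe of ERAP1, NPEPPS and TPP1 on each array (y axis, log2 units, panels of equal span), with mean and SD beside the 3 shCtrl (blue) and 3 shXBP-1s (red) arrays. The difference widens by 0.85 in ERAP1 and narrows by 0.50 in NPEPPS without overlap of the groups.

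A list of 25 other aminopeptidases, dipeptidyl peptidases and oligopeptidases was set beside these genes, each by its brightest tested probe. Of the 24 tested, 7 were higher, 8 lower and 9 did not pass, against 18.9% higher and 27.5% lower (46.4% in all) over 16821 genes represented in the same way. ANPEP, the membrane alanyl aminopeptidase, was not well above background on any array and was not tested. NLN, neurolysin, the closest relative of THOP1, was the highest, with -1.04 ± 0.09 (SD, n = 3) in controls and 0.36 ± 0.19 (SD, n = 3) after knockdown, its log2 fold change being 1.40 ± 0.09 (SE, adjusted p = 1.76e-05 in limma). It was followed by AOPEP, aminopeptidase O (0.76), and PITRM1, which degrades targeting peptides in mitochondria (0.54). AOPEP was tested by a further probe with a signal of 15.0 to 25.4 (0.32, adjusted p = 0.0638 in limma) and PITRM1 by a further one that passed too (0.81). ENPEP, glutamyl aminopeptidase, fell most (-1.11 ± 0.17, SE), at a signal of 18.4 to 21.3 in shCtrl that is near the bottom of the range, followed by RNPEP, aminopeptidase B (-0.47), and DPP8, a cytosolic dipeptidyl peptidase (-0.46). The median of the 24 was -0.03 and that of all genes -0.04.

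In the list of 22 genes that supply, carry and load class I peptides, all 22 were tested, 2 were higher, 8 lower and 12 did not pass, beside 18.9% higher and 27.5% lower (46.4% together) over all genes, so the number called was near the background. The median log2 fold change was -0.07, and no gene reached 2-fold. The 3 immunoproteasome catalytic subunits PSMB8 (-0.40), PSMB9 (-0.42) and PSMB10 (-0.80) were lower at an adjusted p below 0.05 in limma, as were the PA28 activator genes PSME1 (-0.22) and PSME2 (-0.49). PSME3, the third PA28 gene, stood at -0.00371 (adjusted p = 0.968 in limma). Of their counterparts in the standard proteasome PSMB7 was higher (0.21), and PSMB5 (0.12) and PSMB6 (0.06) did not pass. TAP2, a chain of the peptide transporter, was lower by its brighter probe (-0.68), while its other probe, with a signal between 6.85 and 13.6, did not pass (0.03), and TAP1 stood at -0.04 (adjusted p = 0.612 in limma). Of the class I molecules HLA-B, HLA-C, HLA-E, HLA-F and B2M did not pass, with values between -0.16 and 0.17. Class I genes are alike in sequence, and whether a probe of 1 reads another was not tested. The loading factors TAPBPL (-0.24) and PDIA3 (0.26) passed in opposite directions, and the dimmer PDIA3 probe (0.12, adjusted p = 0.106 in limma) did not pass. With normexp, 6 of the 8 genes reported as lower here lay above the median of all tested probes. PSMB10 (-0.23) and TAP2 (-0.09) lay below it. Of the 8 other peptidases reported as lower ENPEP (-0.70) alone lay below it. Most genes of both lists lay above that median, and HLA-C, TAP1 and PSME3, which did not pass, by 0.53, 0.52 and 0.47. A place above it is therefore not by itself a rise. With the quantile-normalized or the deposited log2 values 4 genes of this list were higher in place of 2, and with the scan as a block 5 were lower in place of 8.

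**Figure D4:**
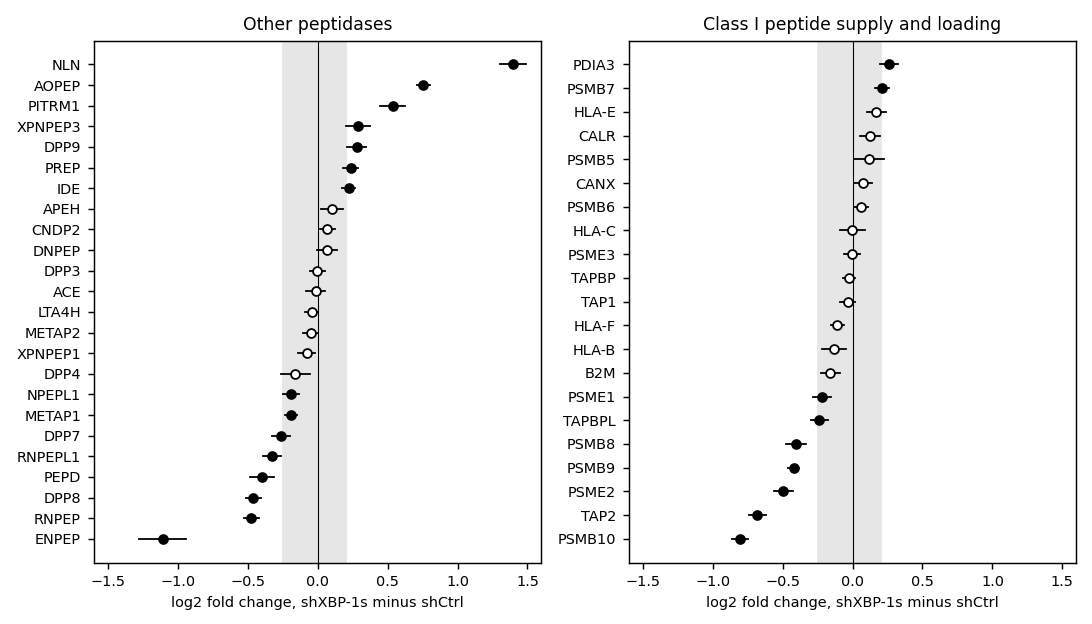
Log2 fold change, shXBP-1s minus shCtrl (x axis), of 24 other peptidases (left) and 21 class I peptide supply and loading genes (right), by the brightest tested probe, with the SE as a bar. Filled points passed an adjusted p of 0.05 and the grey band runs from the lower to the upper quartile of all tested probes. NLN (1.40) and ENPEP (-1.11) lie beyond 2-fold, and no gene on the right does.

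With each array left out in turn, TPP2 stayed between 0.68 and 0.76, LNPEP between 1.17 and 1.20, LAP3 between -0.72 and -0.57, BLMH between -0.68 and -0.55, the dimmer ERAP1 probe between -1.26 and -1.13 and THOP1 between -0.50 and -0.35. The dimmer NPEPPS probe ran from 0.12 to 0.24 and the brighter from -0.33 to -0.28. The brighter TPP1 probe ran from 0.08 to 0.20, the dimmer from -0.28 to -0.13, and ERAP2 from -0.14 to -0.06. NRDC ran from 0.07 to 0.11 and the brighter ERAP1 probe from -0.36 to -0.34. The dimmer NPEPPS probe passed without shCtrl replicate 1 (0.24, adjusted p = 0.0396 in limma). By the same test it passed with quantile normalization (0.24, 0.0340), with the deposited log2 values (0.24, 0.0339) and with the replicate number as a block (0.20, 0.0382). Over all 20 settings the probe difference of ERAP1 stayed between 0.50 and 0.92 and that of NPEPPS between -0.55 and -0.39, while that of TPP1 ran from 0.24 to 0.59.

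**Figure D5:**
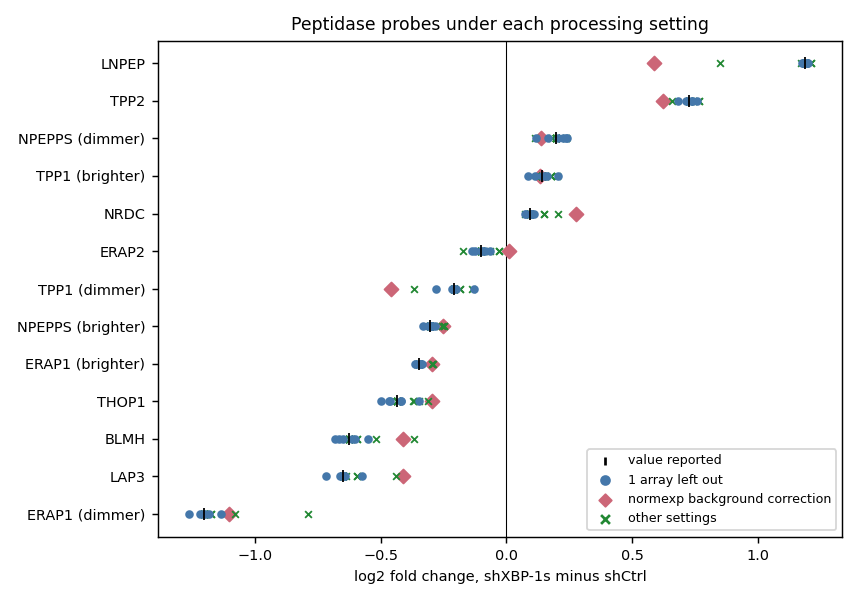
Log2 fold change of the 13 peptidase probes (x axis) as reported (black bar), with 1 array left out (blue), with normexp background correction (red) and under the other settings (green). LNPEP falls from 1.19 to 0.59 with normexp, and ERAP2 is the only probe on both sides of 0.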

How the data were processed

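Total RNA of 3 shXBP-1s and 3 shCtrl samples of CAL-27 cells was measured on Agilent arrays, grouped and numbered as in their titles. The authors deposited 1 scanner file per array from Feature Extraction 11.0.1.1, whose processed intensity has background and spatial trend removed and no normalization between arrays. A deposited log2 table of the whole series had equal quartiles on the 6 arrays (median 6.27) and correlated at 0.9997 or more with the scanner values. RMA is the tool that the submitters' processing notes name. The labels describe a NimbleGen dye protocol on this Agilent array.

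The log2 of the processed intensity was taken and the 75th percentile of the array over non-control spots subtracted. Spots flagged as outliers (230 to 377 per array) were left out and spots of a probe averaged. Of 34127 probes the 27624 detected above background throughout either group were tested 2-sided with limma 3.58.1 (R 4.3.3, lmFit, eBayes with trend), with Benjamini-Hochberg adjustment. Symbols came from unversioned RefSeq accessions, which named 25771 probes. Other probes of the same genes may be among the unnamed ones. The array annotation is on hg19, so the promoter coordinates (GRCh38.p14) are those of the sequences only. Related genes were represented by their brightest tested probe. Named in the text were all members, XBP1, the 3 largest rises and falls that passed in each related list, and the 5 probes nearest to TPP2. Further class I genes and cell type markers were named by role after their values were seen. The fit to probe pairs was added after the values were seen. Some genes counted in the lists are not reported here by name. The script was tested on simulated data. The members and lists were chosen with earlier results of these data known.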

Additional observations from a re-analysis of the deposited data

How the results depend on the processing

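The alternatives were normexp background correction with and without quantile normalization (on the median spot signal, as the files hold no mean), quantile normalization, the log2 table as deposited, a stricter or no filter on dim probes, flagged spots kept, limma without trend, the methods' t-test, a 2-fold minimum, replicate and scan blocks, the mean over a gene's probes, and leaving out each array. With normexp 4507 probes passed in place of 11516, by p-values that rest largely on variance shared over probes. Then 4 other peptidases were higher and 3 lower, and 1 class I gene was higher and 4 lower. With quantile normalization after normexp 5 class I genes were higher. With quantile normalization alone, and with the deposited log2 values, 4 peptidase probes and 4 class I genes were higher. The methods' t-test with Benjamini-Hochberg adjustment left 5 other peptidases lower and 1 class I gene higher. With a 2-fold minimum 1354 probes passed, 1 peptidase probe was higher and 1 lower, 1 other peptidase was higher and 1 lower, 0 class I genes passed in either direction, and TPP2 (0.73) did not pass. With the scan as a block 4 other peptidases were higher and 4 lower, and 5 class I genes were lower. With each array left out the counts ran from 8633 to 12782 for all probes, 2 to 3 peptidase probes higher and 6 to 7 lower, 6 to 7 other peptidases higher and 5 to 8 lower, and 2 to 3 class I genes higher and 5 to 8 lower. The lowest count of other peptidases lower (5) came without shXBP-1s replicate 2, and the lowest of class I genes lower (5) without that array or without shCtrl replicate 3. Of the peptidase probes only ERAP2 changed sign against 0, to 0.0124 with normexp. THOP1 (by 0.12), the brighter ERAP1 probe (0.12) and the brighter NPEPPS probe (0.16) lay above the normexp median of all tested probes (-0.41). LAP3 and BLMH (0.003 each) were level with it. HLA-C, at -0.000426 in the main fit, lay 0.53 above that median, so a place above it is not by itself a rise. With quantile normalization after normexp THOP1 (-0.35), the brighter ERAP1 probe (-0.29) and the brighter NPEPPS probe (-0.25) were lower and passed. Where these values moved, the cause was not tested.

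The replicate numbers did not pair the arrays: deviations of same-numbered arrays from their group means correlated at -0.02, 0.12 and -0.12, and not every array correlated best with its own number. With the replicate number as a block 11116 probes passed, TPP2 stayed at 0.73 (adjusted p = 1.38e-04 in limma) and 3 peptidase probes were higher, the dimmer NPEPPS probe added. The same settings left XBP1 between -2.40 and -2.12.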
